A study of Mus musculus with 6 samples.

Results

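Toll-like receptors are membrane proteins that bind molecules of microbes, and MyD88 is the adaptor through which most of them signal. The genes described here are Tlr1 to Tlr9 and Myd88, chosen by name, 10 of 55487 genes in the deposited table, and all 10 had enough counts to be tested. They were measured by RNA-seq in mouse bone marrow cells whose label is LT-HSC, long-term haematopoietic stem cell, the type that maintains blood formation for life. The first group was 3 libraries labelled Mmrn1-high LT-HSCs, and the second was 3 libraries labelled Mmrn1-low LT-HSCs. All 6 libraries carried a genotype given only as "Mmrn1-GFP type". The gene Mmrn1 codes for multimerin 1, which platelets and endothelium make. The sources used here do not give the age and sex of the mice, any treatment, the surface gate, what drives the GFP, or whether replicates came from separate mice. The p-values therefore reflect the spread among these 6 libraries, and that spread may be only technical.

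Each receptor has an outer part of leucine-rich repeats that binds the ligand and an inner TIR domain that recruits adaptors. Those at the cell surface mainly read bacterial lipids and proteins, and those in endosomes read nucleic acids or, for a few rodent receptors, profilin. MyD88 joins the receptor to IRAK kinases and TRAF6, which activate NF-kappaB and, in endosomes, interferon regulatory factors. The TLR3 receptor uses the adaptor TRIF instead, and TLR4 uses both. In bone marrow, stem and progenitor cells are known to carry some of these receptors and to respond to their ligands by making myeloid cells.

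Totals ranged from 11595104 to 30909990 counts per library. Mmrn1 itself was at 10.0 ± 1.33 CPM in Mmrn1-high and 5.69 ± 0.11 CPM in Mmrn1-low cells (SD, n = 3 each), where CPM is a count relative to the library's total, adjusted for composition by edgeR's TMM factors. All 10 stem cell markers examined were detected and higher in Mmrn1-high cells, with Kit at 395 ± 5.17 and 329 ± 5.54 CPM and Gata2 at 122 ± 29.3 and 38.7 ± 9.69 CPM in Mmrn1-high and Mmrn1-low cells. Markers of other cells were present as well. The granulocyte progenitor gene Mpo was at 1945 ± 20.6 CPM in Mmrn1-high and 12580 ± 434 CPM in Mmrn1-low cells, and Elane at 343 ± 15.9 and 4073 ± 203 CPM. Kit and Gata2 are also expressed by progenitors. Of the markers more restricted to LT-HSCs, Procr was at 12.4 ± 1.41 and 4.34 ± 0.63 CPM, Fgd5 at 9.33 ± 0.77 and 2.93 ± 0.98 CPM and Slamf1 at 4.92 ± 0.40 and 1.54 ± 0.38 CPM in Mmrn1-high and Mmrn1-low cells, 3 genes chosen after their values were seen. In the Mmrn1-low libraries these were low and granulocyte progenitor transcripts abundant, so the markers go against reading those libraries as LT-HSCs alone. Mpo and Elane were present in the Mmrn1-high libraries too, where summed neutrophil markers were at 4319 to 4601 CPM. The markers therefore also go against reading the Mmrn1-high libraries as LT-HSCs alone. Fewer cells of a type and less RNA per cell cannot be told apart in such bulk samples. In the edgeR quasi-likelihood test, 61.2% of 15419 tested genes passed a Benjamini-Hochberg adjusted p under 0.05, 30.7% higher and 30.5% lower in Mmrn1-high cells. Scaling by library size alone shifted the median log2 fold change of all genes from near 0 to 0.15 and gave 6201 higher and 3193 lower genes, against 4737 and 4701 with TMM.

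In the edgeR test 4 of the 10 genes were higher in Mmrn1-high cells, the nucleic acid receptor genes Tlr3, Tlr8 and Tlr9 and the flagellin receptor gene Tlr5. A further 3 were lower, the lipopeptide receptor genes Tlr1 and Tlr2 and the adaptor gene Myd88. Another 3, Tlr4, Tlr6 and Tlr7, did not pass the threshold. The share called, 7 of 10, is close to the 61.2% of all tested genes, and the groups did not overlap for 7 of 10 genes, against 67.8% of all tested genes. The median log2 fold change was 0.34 over the 10 genes and 0.01 over all genes tested. With unfiltered log2(FPKM + 1) these medians were 0.03 and 0.03. In the filtered settings, where 4 of the 10 genes were tested, they were −0.14 and 0.08 with log2(FPKM + 1), and −0.15 and 0.10 with log2(FPKM + 0.1). The sign of each single gene's log2 fold change was the same in every alternative setting in which that gene was tested.

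**Figure D1:**
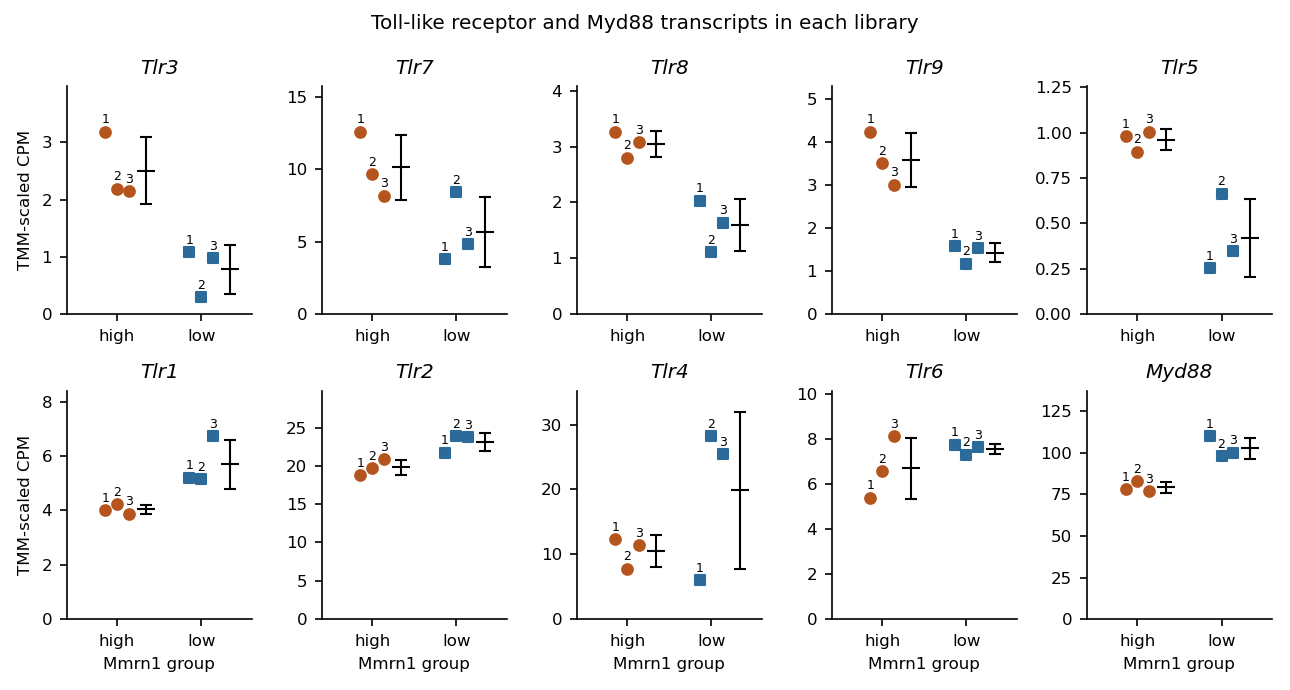
TMM-scaled CPM (vertical axes, each from 0) of the 10 genes in every library, Mmrn1-high as circles and Mmrn1-low as squares, with replicate numbers above the points and the mean and SD of 3 libraries beside them. The groups are apart for Tlr3, Tlr8, Tlr9, Tlr5, Tlr1, Tlr2 and Myd88, and overlap for Tlr7, Tlr4 and Tlr6, where Mmrn1-low replicate 1 stands below all other libraries for Tlr4.

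Tlr3 (GRCm38 chromosome 8, 45395665 to 45411080, minus strand) encodes the receptor for double-stranded RNA. It was at 3.19, 2.19 and 2.14 CPM in Mmrn1-high replicates 1 to 3, against 1.08, 0.295 and 0.975 CPM in Mmrn1-low replicates 1 to 3. Every Mmrn1-high library lay above every Mmrn1-low library, and Mmrn1-low replicate 2, with 4 counts, was lowest. The log2 fold change was 1.56 ± 0.36 SE (edgeR adjusted p = 0.00549). Of its exonic bases, 7.32% are shared with Gm45542 on the opposite strand, and the sources used here do not say whether the counting used strand.

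Tlr9 (chromosome 9, 106222598 to 106226883, plus strand), the receptor for unmethylated CpG DNA, was at 4.25, 3.51 and 3.01 CPM in Mmrn1-high and 1.59, 1.18 and 1.53 CPM in Mmrn1-low libraries. The groups were well apart, with the lowest Mmrn1-high library above the highest Mmrn1-low library, and Tlr9 was higher by 1.29 ± 0.19 SE on the log2 scale (edgeR adjusted p = 5.96e-04). The call held in all 13 alternatives that tested it.

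Tlr7 and Tlr8 are neighbours on chromosome X (167304929 to 167330558 and 167242696 to 167264329, both minus strand) and encode receptors of the single-stranded RNA class. Tlr8 was at 3.27, 2.81 and 3.08 CPM in Mmrn1-high and 2.03, 1.11 and 1.64 CPM in Mmrn1-low libraries. Its groups did not overlap, and it was higher by 0.90 ± 0.22 SE on the log2 scale (edgeR adjusted p = 0.00676). Tlr7 was at 12.6, 9.65 and 8.17 CPM in Mmrn1-high and 3.81, 8.41 and 4.84 CPM in Mmrn1-low libraries, so Mmrn1-low replicate 2 stood above Mmrn1-high replicate 3. Its log2 fold change of 0.85 ± 0.32 SE missed the threshold (edgeR adjusted p = 0.0581). Without Mmrn1-low replicate 2 it was 1.20 (edgeR adjusted p = 0.00302), and DESeq2 (adjusted p = 0.0161), limma voom (0.0191) and scaling by library size alone (0.0352) called it higher on all 6 libraries.

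Tlr5 (chromosome 1, 182954788 to 182976044, plus strand), the surface receptor of bacterial flagellin, was the least abundant of the 10. It had 12, 29 and 15 counts in Mmrn1-high and 4, 9 and 10 counts in Mmrn1-low libraries, or 0.980, 0.894 and 1.005 CPM against 0.254, 0.664 and 0.348 CPM. A count of 3 corresponds to 0.0925 to 0.245 CPM in these libraries, and to 0.190, 0.221 and 0.1045 CPM in Mmrn1-low replicates 1 to 3. Tlr5 lay close to that floor in Mmrn1-low replicate 1. It was further above it in Mmrn1-low replicates 2 and 3, with only 9 and 10 counts. The groups did not overlap, and Tlr5 was higher by 1.23 ± 0.35 SE on the log2 scale (edgeR adjusted p = 0.0160). The call was lost with DESeq2 (adjusted p = 0.112) and without Mmrn1-low replicate 3 (edgeR log2 fold change 1.08, adjusted p = 0.0702).

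The mouse has further receptors of this family, Tlr11, Tlr12 and Tlr13, which are not among the 10 genes. All 3 were called higher in Mmrn1-high cells, beside 30.7% of all tested genes. Tlr12, a profilin receptor gene, was at 13.6 ± 0.88 CPM in Mmrn1-high and 4.28 ± 0.47 CPM in Mmrn1-low cells (SD, n = 3 each; log2 fold change 1.66 ± 0.11 SE, edgeR adjusted p = 6.27e-06). Tlr13, the receptor of bacterial ribosomal RNA, was at 10.1 ± 1.13 and 4.51 ± 0.71 CPM in Mmrn1-high and Mmrn1-low cells (1.15 ± 0.15 SE, edgeR adjusted p = 2.21e-04). Tlr11, also a profilin receptor gene, had 12, 20 and 11 counts in Mmrn1-high and 0, 3 and 5 counts in Mmrn1-low libraries, with a log2 fold change of 2.38 ± 0.58 SE (edgeR adjusted p = 0.00742).

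**Figure D2:**
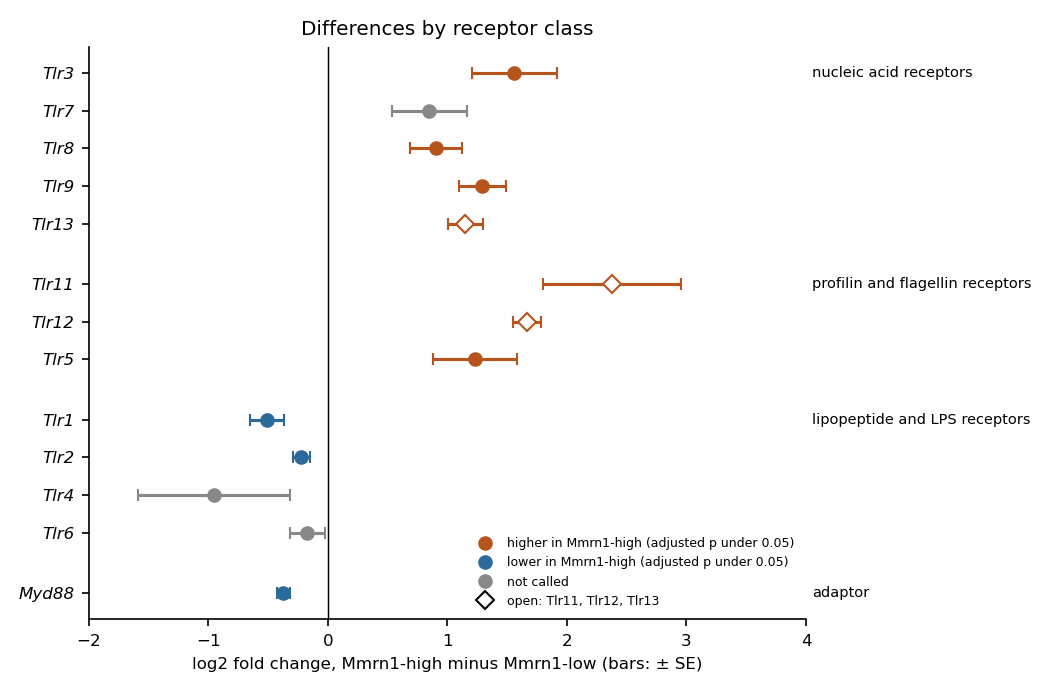
Log2 fold change, Mmrn1-high minus Mmrn1-low, with its standard error (horizontal axis) for each Toll-like receptor gene and Myd88, grouped by ligand. Filled circles are the 10 genes and open diamonds are Tlr11, Tlr12 and Tlr13. All points of the nucleic acid, profilin and flagellin receptors lie above 0, with only Tlr7 not called, and the points of Tlr1, Tlr2, Tlr4, Tlr6 and Myd88 lie below 0.

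Dendritic cells and B cells are known to carry nucleic acid receptors. Their markers are given here beside the 30.7% of all tested genes that were called higher and the 30.5% called lower. Of 6 plasmacytoid dendritic cell markers 5 were called higher in Mmrn1-high cells and none lower, with summed levels of 320.5 to 403 CPM in Mmrn1-high and 203 to 272 CPM in Mmrn1-low libraries, led by Irf8 (135 ± 56.4 and 114 ± 40.2 CPM, not called) and Tcf4 (129.8 ± 18.7 and 65.7 ± 0.39 CPM). Of 4 tested conventional dendritic cell markers 3 were higher, with sums of 17.1 to 18.5 CPM in Mmrn1-high and 5.24 to 7.36 CPM in Mmrn1-low libraries, of which Itgax held 13.4 ± 0.78 and 3.79 ± 0.51 CPM and Zbtb46, not called, 1.17 ± 0.20 and 1.40 ± 0.33 CPM. Of 5 tested B cell markers 3 were higher, with sums of 38.4 to 40.6 and 30.3 to 31.7 CPM in Mmrn1-high and Mmrn1-low libraries, mostly Cd79b (26.9 ± 0.62 and 24.8 ± 0.34 CPM, not called) beside Cd79a (4.54 ± 0.28 and 3.00 ± 0.57 CPM). Summed T and NK cell markers were at 42.2 to 44.4 and 11.9 to 13.9 CPM, plasma cell markers at 321 to 359 and 657 to 675 CPM, mast cell and basophil markers at 106 to 117 and 63.7 to 71.1 CPM, and endothelial markers at 147 to 158 and 82.2 to 88.2 CPM in Mmrn1-high and Mmrn1-low libraries. Of 6 T and NK cell markers only Lck and Klrb1c were tested, and both were called higher. Of 5 plasma cell markers Sdc1 was called higher and Mzb1 and Igkc lower. The counts of Mzb1 and Klrb1c are uncertain, because they share exonic bases with another gene on the same strand. These are 57.2% of the exonic bases of Mzb1, shared with SPATA24, and 13.95% of those of Klrb1c, shared with Gm44511. Of 4 mast cell and basophil markers Cpa3 and Prss34 were called higher and none lower. Of 4 tested endothelial markers Emcn and Pecam1 were called higher and Stab2 lower. None of the markers in these lists was at 0 in all libraries, and their part in the receptor differences was not tested.

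Tlr2 (chromosome 3, 83836272 to 83841767, minus strand) encodes the common partner of the lipopeptide receptors and was the most abundant receptor gene. It was at 18.8, 19.7 and 20.8 CPM in Mmrn1-high and 21.7, 23.8 and 23.7 CPM in Mmrn1-low libraries. The groups did not overlap but were close. Tlr2 fell in Mmrn1-high cells by 0.22 ± 0.07 SE on the log2 scale (edgeR adjusted p = 0.0280). This call was not stable, with a log2 fold change of −0.07 (edgeR adjusted p = 0.408) under library size alone, and it was lost without Mmrn1-high replicate 1 (−0.17), Mmrn1-high replicate 2 (−0.20), Mmrn1-low replicate 2 (−0.20) or Mmrn1-low replicate 3 (−0.19). The edgeR adjusted p in these 4 fits ranged from 0.0758 to 0.108.

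Tlr1 and Tlr6 lie side by side on chromosome 5 (64924679 to 64933563 and 64952031 to 64960097, minus strand), and their proteins pair with TLR2 to read triacylated and diacylated lipopeptides. Tlr1 was at 4.003, 4.22 and 3.89 CPM in Mmrn1-high and 5.20, 5.16 and 6.72 CPM in Mmrn1-low libraries, with no overlap. It fell in Mmrn1-high cells by 0.51 ± 0.14 SE on the log2 scale (edgeR adjusted p = 0.0151). Without Mmrn1-low replicate 3, the highest library, the log2 fold change was −0.35 (edgeR adjusted p = 0.0636), and neither library size alone (0.0604) nor DESeq2 (0.0683) gave a call. Tlr6 was at 5.39, 6.57 and 8.11 CPM in Mmrn1-high and 7.74, 7.30 and 7.63 CPM in Mmrn1-low libraries, which overlapped, with a log2 fold change of −0.17 ± 0.15 SE (edgeR adjusted p = 0.339). The counts of this pair are uncertain, because 15.3% of the 50-base windows of the longest Tlr1 transcript, and 12.5% of those of Tlr6, occur unchanged in the other gene.

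Tlr4 (chromosome 4, 66827584 to 66930284, plus strand), the receptor of bacterial lipopolysaccharide (LPS), was the most variable of the 10. It was at 12.3, 7.77 and 11.4 CPM in Mmrn1-high libraries, against 6.03, 28.2 and 25.4 CPM in Mmrn1-low libraries. Mmrn1-low replicates 2 and 3 stood above all Mmrn1-high libraries and Mmrn1-low replicate 1 below them. The highest Mmrn1-low library exceeded the lowest 4.67-fold, and 41 of 11462 tested genes with a mean of at least 5 CPM, or 0.358%, had a ratio as large in that group. The log2 fold change of −0.95 ± 0.63 SE was not called (edgeR adjusted p = 0.261), while without Mmrn1-low replicate 1 it was −1.37 (edgeR adjusted p = 0.00270). Tlr4 shares no exonic bases with another annotated gene, its 95 counts in that library are well above the limit of detection, and the cause of the low value was not tested.

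Myd88 (chromosome 9, 119335934 to 119341411, minus strand) was at 77.9, 82.7 and 76.9 CPM in Mmrn1-high and 110, 97.9 and 100 CPM in Mmrn1-low libraries. The groups were clearly apart. Myd88 fell in Mmrn1-high cells by 0.37 ± 0.05 SE on the log2 scale (edgeR adjusted p = 4.88e-04), a call held in all 15 alternatives that tested it, with −0.22 under library size alone. Of its exonic bases, 11.3% are shared with Acaa1a on the opposite strand.

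Markers of myeloid cells, which are known to carry the lipopeptide and LPS receptors, did not move one way. Their counts stand beside the 30.7% of all tested genes called higher and the 30.5% called lower. All 7 tested tissue macrophage markers were lower in Mmrn1-high cells, with sums of 12.3 to 15.2 CPM in Mmrn1-high and 68.2 to 71.2 CPM in Mmrn1-low libraries, among them Cd163 (3.33 ± 0.71 and 10.4 ± 0.48 CPM), Mrc1 (1.86 ± 0.32 and 13.3 ± 1.28 CPM) and Adgre1 (5.57 ± 0.63 and 8.04 ± 0.66 CPM). The median log2 fold change of the 7 was −3.47, and Cd163, Mrc1 and Adgre1 each fell by less than that. Of 6 monocyte markers 2 were called higher and 2 were called lower, with sums of 640 to 677 and 1031 to 1115 CPM in Mmrn1-high and Mmrn1-low libraries, led by F13a1 (225.5 ± 5.36 and 394 ± 2.36 CPM) and Ly6c2 (112 ± 8.72 and 432 ± 36.6 CPM). All 5 granulocyte progenitor markers were lower, with sums of 3343 to 3419 and 22850 to 24110 CPM in Mmrn1-high and Mmrn1-low libraries. All 8 markers of maturing neutrophils were higher, with sums of 4319 to 4601 and 2648 to 2773 CPM, led by S100a9 (1309 ± 117 and 804 ± 128 CPM) and Ngp (1182 ± 5.62 and 597 ± 29.7 CPM). No marker in these lists was at 0 in all libraries, and their part in the falls of Tlr1, Tlr2 and Myd88 was not tested.

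Levels of different genes were compared by the authors' FPKM, which divide counts by gene length and library total with no composition scaling. Myd88 was first in both groups, at 18.02 ± 0.69 FPKM in Mmrn1-high and 21.1 ± 1.26 FPKM in Mmrn1-low cells (SD, n = 3 each). Tlr2 was next, at 6.90 ± 0.33 and 7.27 ± 0.39 FPKM in Mmrn1-high and Mmrn1-low cells, with no overlap with its neighbours. Tlr4 came after it by its mean in both groups, at 1.63 ± 0.38 FPKM in Mmrn1-high and 2.79 ± 1.70 FPKM in Mmrn1-low cells, and its range overlapped that of the gene ranked next. In Mmrn1-high cells Tlr9 (1.09 ± 0.19 FPKM), Tlr6 (1.05 ± 0.21 FPKM) and Tlr7 (0.926 ± 0.209 FPKM) followed with overlapping ranges, ahead of Tlr1 (0.689 ± 0.029 FPKM). In Mmrn1-low cells Tlr6 (1.07 ± 0.03 FPKM) and Tlr1 (0.878 ± 0.139 FPKM) stood above Tlr7 (0.469 ± 0.199 FPKM) and Tlr9 (0.391 ± 0.060 FPKM). Tlr8, Tlr3 and Tlr5 were the 3 lowest in both groups, with Tlr5 at 0.0946 ± 0.0058 FPKM in Mmrn1-high and 0.0375 ± 0.0191 FPKM in Mmrn1-low cells.

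Within each library, the nucleic acid receptor genes Tlr3, Tlr7, Tlr8 and Tlr9 held 23.8%, 20.2% and 17.0% of the summed FPKM of Tlr1 to Tlr9 in Mmrn1-high replicates 1 to 3. They held 10.1%, 8.08% and 7.67% in Mmrn1-low replicates 1 to 3. Leaving Tlr4 out of the sum, because of its spread, gave 27.9%, 22.4% and 19.6% in Mmrn1-high and 11.0%, 11.1% and 10.2% in Mmrn1-low libraries, so the groups did not overlap either way. Tlr2 alone made up 49.5% to 55.3% of the sum of Tlr1 to Tlr9 in Mmrn1-high and 51.7% to 64.0% in Mmrn1-low libraries. These shares leave out Tlr11, Tlr12 and Tlr13 and would be different with them. Tlr12 was at 3.98 ± 0.26 FPKM in Mmrn1-high and 1.13 ± 0.13 FPKM in Mmrn1-low cells. Tlr13, also a nucleic acid receptor gene, was at 2.42 ± 0.27 FPKM in Mmrn1-high and 0.973 ± 0.156 FPKM in Mmrn1-low cells.

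**Figure D3:**
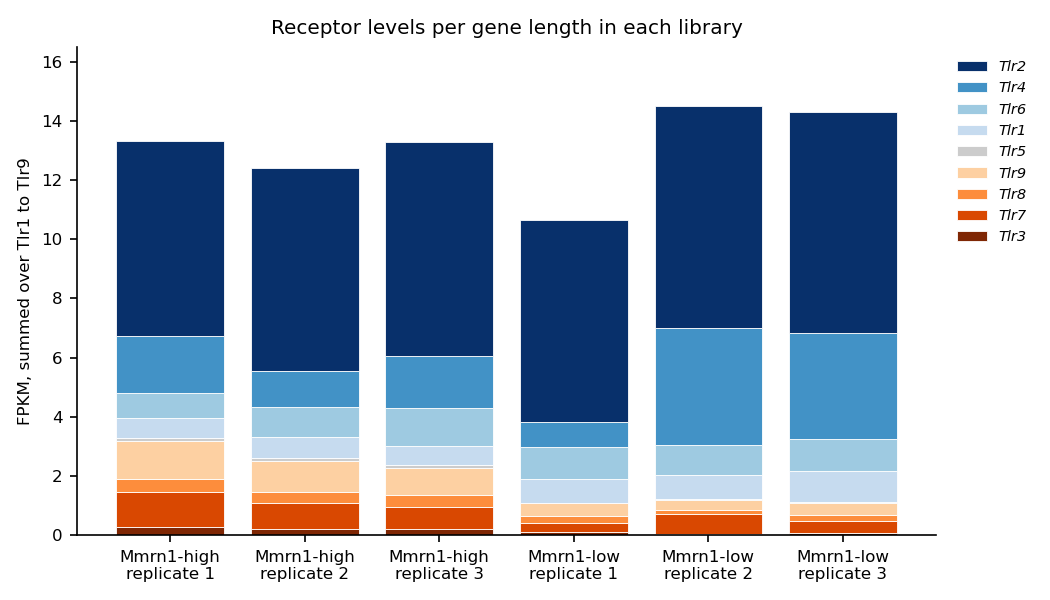
Summed FPKM of Tlr1 to Tlr9 (vertical axis, from 0) in each of the 6 libraries, stacked by gene with the nucleic acid receptors in orange to brown at the bottom. The orange to brown part is taller in the 3 Mmrn1-high libraries (2.26 to 3.17 FPKM) than in the 3 Mmrn1-low libraries (1.08 to 1.17 FPKM), Tlr2 is the largest part of each bar, and Mmrn1-low replicate 1 lacks most of its Tlr4 part.

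The sequence before and after the RefSeq transcription start (250 and 50 bases, assembly GRCm38.p6) was found for 8 of the 10 genes, not for Tlr4 and Tlr7. It was searched on both strands for an NF-kappaB site (GGG and TTTCC with any 2 bases between them), an interferon response element (GAAA and GAAA with any 2 bases between them) and a site of the blood cell factor PU.1 written as GAGGAAGT. Shown are 2 genes that rose and 2 that fell in Mmrn1-high cells and that hold a match, printed in capitals, each 5′ to 3′ on its own strand.
Tlr3, minus strand of chr8:45410331-45410630: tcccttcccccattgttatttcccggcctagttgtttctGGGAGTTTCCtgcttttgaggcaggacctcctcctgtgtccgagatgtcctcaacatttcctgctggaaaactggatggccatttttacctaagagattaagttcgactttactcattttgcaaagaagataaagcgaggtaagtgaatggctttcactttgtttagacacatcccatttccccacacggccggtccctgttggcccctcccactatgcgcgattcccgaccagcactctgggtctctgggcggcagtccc
Tlr9, plus strand of chr9:106222348-106222647: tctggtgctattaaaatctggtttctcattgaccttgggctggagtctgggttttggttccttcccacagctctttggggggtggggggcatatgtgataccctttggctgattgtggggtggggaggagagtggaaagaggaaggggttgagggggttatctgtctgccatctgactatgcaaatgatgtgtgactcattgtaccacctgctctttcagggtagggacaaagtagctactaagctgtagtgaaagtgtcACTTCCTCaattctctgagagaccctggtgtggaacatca
Tlr1, minus strand of chr5:64933509-64933808: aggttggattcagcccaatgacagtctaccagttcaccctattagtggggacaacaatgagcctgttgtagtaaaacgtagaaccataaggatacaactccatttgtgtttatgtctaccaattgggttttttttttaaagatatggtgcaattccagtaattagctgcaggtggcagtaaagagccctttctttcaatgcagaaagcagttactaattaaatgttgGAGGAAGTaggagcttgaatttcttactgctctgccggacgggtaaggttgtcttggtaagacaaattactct
Myd88, minus strand of chr9:119339969-119340268: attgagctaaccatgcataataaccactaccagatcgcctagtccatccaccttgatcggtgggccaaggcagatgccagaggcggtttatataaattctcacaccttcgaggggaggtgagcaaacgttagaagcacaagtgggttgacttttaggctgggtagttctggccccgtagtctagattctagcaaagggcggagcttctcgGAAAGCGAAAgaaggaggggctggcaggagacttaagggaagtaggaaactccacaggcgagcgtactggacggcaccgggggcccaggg
Tlr3 holds the NF-kappaB letters at −211 from the start, Tlr9 the PU.1 letters on the opposite strand at 11, Tlr1 the PU.1 letters at −23 and Myd88 the interferon response letters at −40. Tlr6, not shown, holds 2 overlapping matches to the interferon response letters, and the windows of Tlr2, Tlr5 and Tlr8 hold no match. None of these matches overlapped a match to another of the 3 motifs. Of 32851 windows of the same length, 1.63% held the NF-kappaB letters, 3.44% the interferon response letters and 3.2% the PU.1 letters. The counts of CG dinucleotides in the windows shown were 10 in Tlr3, 0 in Tlr9, 3 in Tlr1 and 13 in Myd88, where the median window held 7. Tlr1 and Tlr6 each have another start window, with 9 and 7 CG dinucleotides and no match to any of the 3 motifs. Outside the 10 genes, Tlr11, which also rose, holds the PU.1 letters at −133, as Tlr9 does elsewhere in its window. Tlr11 also holds the interferon response letters at −122, and the windows of Tlr12 and Tlr13 hold no match. A match describes letters and is not evidence of binding. Among the 10 genes, those that rose do not share a motif here, while Tlr9 and Tlr11 share the PU.1 letters with Tlr1, which fell.

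The genes that work with the receptors, 98 genes in 9 lists of which 91 were tested, had 43 called higher in Mmrn1-high cells and 23 called lower. The counts of the lists below stand against 30.7% called higher and 30.5% called lower over all tested genes, and no list was tested against other genes. Surface co-receptors and ligand carriers, 5 tested of 6, had 3 called higher and 2 called lower, and their median log2 fold change was 0.62, which became 0.38 without Mmrn1-low replicate 2, 0.35 without Mmrn1-low replicate 3 and 0.39 with DESeq2. Within the LPS receptor complex the genes went opposite ways. Ly96, which encodes the TLR4 partner MD-2, rose to 2.88 ± 0.19 CPM in Mmrn1-high cells, against 1.23 ± 0.09 CPM in Mmrn1-low cells (log2 fold change 1.23 ± 0.16 SE, edgeR adjusted p = 3.09e-04). Cd14, the LPS-binding co-receptor gene, fell to 5.86 ± 0.50 CPM in Mmrn1-high cells, against 12.2 ± 0.44 CPM in Mmrn1-low cells (−1.07 ± 0.10 SE, edgeR adjusted p = 3.63e-05). Lbp, which encodes the secreted LPS-binding protein, fell to 83.7 ± 0.77 CPM, against 169 ± 8.70 CPM (−1.01 ± 0.04 SE). Cd180 (0.73 ± 0.08 SE) and its partner gene Ly86 (0.62 ± 0.07 SE), which form a related complex that restrains TLR4 in myeloid cells, both rose.

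Of 10 genes of receptor folding, endosomal transport and processing, 3 were called higher and 3 were called lower, and the median of −0.06 became 0.09 with library size alone, 0.003 when Mmrn1-high replicate 2 was left out and −0.01 when Mmrn1-low replicate 1 was. Hsp90b1, whose product gp96 folds most of the receptors, fell to 581 ± 3.76 CPM in Mmrn1-high cells, against 1322 ± 40 CPM in Mmrn1-low cells (−1.19 ± 0.03 SE), and its co-chaperone gene Cnpy3 fell by 0.26 ± 0.05 SE on the log2 scale, a call lost with library size alone (edgeR adjusted p = 0.0518). The protease genes Ctss (1.14 ± 0.05 SE) and Lgmn (0.87 ± 0.10 SE), whose products cleave endosomal receptors, rose, as did the transporter gene Slc15a3 (0.98 ± 0.12 SE), and Ctsb fell by 0.64 ± 0.03 SE. Other annotated genes share 28.1% of the exonic bases of Slc15a3, 15.7% of those of Hsp90b1 and 12.8% of those of Ctsb. Unc93b1, whose product carries the nucleic acid receptors to endosomes, was at 192 ± 5.62 CPM in Mmrn1-high and 205 ± 12.9 CPM in Mmrn1-low cells and was not called (edgeR adjusted p = 0.132).

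Adaptor and kinase genes, 23 tested of 24, included 3 called higher and 9 called lower, and their median was −0.05, or 0.09 with library size alone. That scaling also lost the lower calls of Irak4, Ube2n and Ripk1 and called Traf6, Ikbkb and Btk higher. The smallest p belonged to Ikbke, a kinase gene of the interferon arm, which fell by 0.88 ± 0.06 SE on the log2 scale (edgeR adjusted p = 3.77e-06), and Pik3ap1, an adaptor to phosphoinositide kinase, which fell by 0.61 ± 0.04 SE. The higher genes were Map3k8, a kinase gene of the MAP kinase branch (1.17 ± 0.12 SE), Ticam2, which encodes the TRIF-related adaptor TRAM (0.56 ± 0.06 SE), and Ikbkg, which encodes the IKK subunit NEMO (0.26 ± 0.05 SE). Ticam2 shares exons with Tmed7 on the same strand, so its counts are uncertain. Tirap, the bridging adaptor of TLR2 and TLR4, fell by 0.53 ± 0.08 SE and Ticam1, which encodes TRIF, by 0.49 ± 0.09 SE. These last 2 were chosen after their values were seen.

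Inhibitors of the pathway were called higher for 4 of 11 genes and lower for 4, and their median was 0.04, or 0.19 with library size alone. Sigirr, a decoy-like TIR receptor gene (0.59 ± 0.09 SE), Socs1 (0.71 ± 0.11 SE), Trafd1 (0.46 ± 0.10 SE) and Inpp5d (0.17 ± 0.03 SE) rose. Tank (−0.70 ± 0.05 SE), Tollip (−0.34 ± 0.05 SE), Tnip1 (−0.47 ± 0.07 SE) and Irak3, a gene of an IRAK without kinase activity (−0.70 ± 0.18 SE), fell. The Irak3 call was lost without any one Mmrn1-high replicate (edgeR adjusted p from 0.0524 to 0.0650). All 6 transcription factor genes were called higher, with a median of 0.54. Irf7 (1.43 ± 0.13 SE) and Irf5 (1.06 ± 0.19 SE), which act downstream of MyD88, rose most, beside the NF-kappaB genes Rel (0.59 ± 0.07 SE) and Rela (0.49 ± 0.06 SE). Of the exonic bases of Irf5, 14.15% are shared with Tnpo3 on the opposite strand. The calls of Irf3 (0.17 ± 0.06 SE) and Nfkb1 (0.19 ± 0.07 SE) were each lost in 4 of the 6 fits with a library left out, at edgeR adjusted p of 0.0543 to 0.0951 for Irf3 (without Mmrn1-high replicate 1 or 3 or Mmrn1-low replicate 2 or 3) and 0.0722 to 0.120 for Nfkb1 (without Mmrn1-high replicate 1 or 2 or Mmrn1-low replicate 2 or 3).

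Of 16 genes that the receptors are known to induce, 11 were tested, of which 9 were called higher and 1 was called lower, against 30.7% and 30.5% of all tested genes, and their median was 1.18. The chemokine gene Ccl3 rose to 36.6 ± 1.28 CPM in Mmrn1-high cells, against 6.50 ± 0.57 CPM in Mmrn1-low cells (2.49 ± 0.08 SE, edgeR adjusted p = 1.45e-07), and Ccl4 (2.70 ± 0.10 SE) and the NF-kappaB cofactor gene Nfkbiz (1.87 ± 0.07 SE) rose too. The lower gene was the chemokine gene Cxcl10, at 3.57 ± 0.87 CPM in Mmrn1-high and 8.87 ± 0.33 CPM in Mmrn1-low cells (−1.36 ± 0.18 SE, edgeR adjusted p = 2.62e-04). Il1b, at 1.39 ± 0.16 CPM in Mmrn1-high and 0.857 ± 0.290 CPM in Mmrn1-low cells, was not called (edgeR adjusted p = 0.0508), but was without Mmrn1-low replicate 1 (0.0457) or Mmrn1-low replicate 2 (0.0497). Il12b and Ifnb1 had no count in any library, which allows up to 0.0925 to 0.245 CPM by counting error.

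Receptors of the interleukin-1 family also signal through MyD88. In Mmrn1-high cells 4 of 7 were called higher and 2 were called lower, and the median log2 fold change was 0.92. Il1r1, the interleukin-1 receptor gene, rose to 158 ± 4.11 CPM in Mmrn1-high cells, against 52.1 ± 0.63 CPM in Mmrn1-low cells (1.61 ± 0.04 SE, edgeR adjusted p = 2.49e-08), while Il1rap, which encodes its obligate partner chain, fell to 22.7 ± 0.82 CPM, against 41.1 ± 2.11 CPM (−0.85 ± 0.06 SE). The interleukin-18 receptor genes Il18r1 (2.05 ± 0.13 SE) and Il18rap (0.92 ± 0.04 SE) and the interleukin-33 receptor gene Il1rl1 (1.11 ± 0.12 SE) rose, and Il1rl2 fell by 1.48 ± 0.09 SE. Other sensors of microbes were called higher for 8 of 15 genes and lower for 2, and their median was 0.44. These 10 of 15 called are near the 61.2% called among all tested genes. The RNA sensor genes Ddx58 (0.96 ± 0.05 SE) and Dhx58 (0.63 ± 0.06 SE) and the DNA pathway gene Sting1 (0.62 ± 0.06 SE) rose. The lower genes were Nlrc4 (−0.56 ± 0.08 SE), of the flagellin inflammasome, and Clec7a (−0.40 ± 0.10 SE), the beta-glucan receptor, whose call was lost with library size alone (edgeR adjusted p = 0.0522).

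**Figure D4:**
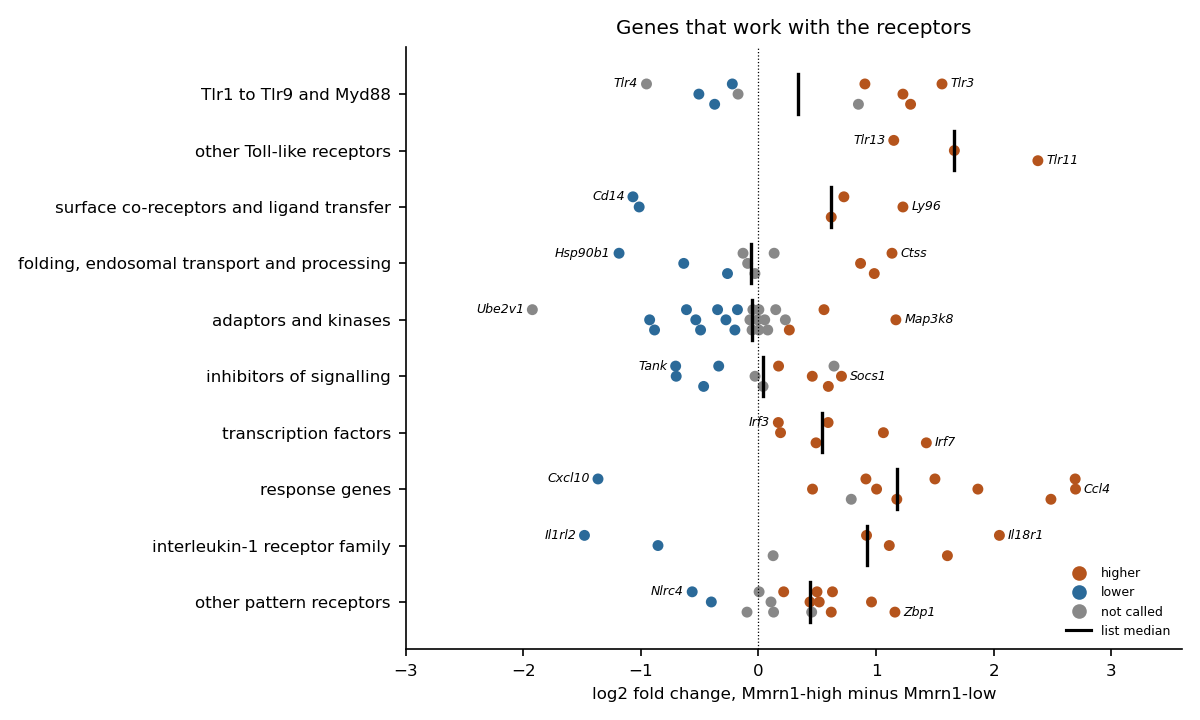
Log2 fold change, Mmrn1-high minus Mmrn1-low (horizontal axis), of every tested gene in the 10 receptor and adaptor genes and the 9 lists around them, 1 point per gene coloured by its edgeR call, with a black bar at each list's median and the lowest and highest gene named. Medians lie near 0 for folding genes, adaptors and inhibitors and above 0.5 for the other Toll-like receptors, co-receptors, transcription factors, response genes and the interleukin-1 receptor family.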

How the data were processed

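Poly-A RNA from 6 samples was made into stranded paired-end libraries and sequenced on an Illumina instrument, per the labels' protocols. The deposited table holds raw read counts per gene and the authors' FPKM values, per the file headers. Per the submitters' processing notes, the build was GRCm38 and the tools listed, without roles, were HISAT2, StringTie, edgeR and CASAVA 1.8. The deposited counts were whole numbers, not normalised, and the sources used here give neither the strand setting nor filters. Counts were tested with edgeR 4.0.16 (R 4.3.3): TMM factors, filterByExpr, robust quasi-likelihood F test with the group as the only term, all 15419 genes that passed, Benjamini-Hochberg adjustment. Fold changes are Mmrn1-high minus Mmrn1-low, and SE is the fold change over the square root of F. The procedure was also run on simulated counts in which few genes were changed, balanced in direction. That run therefore does not bear on the choice of scaling for these data. Alternatives were RLE factors, library size alone, no filter, DESeq2 1.42.0, limma 3.58.1 voom, a replicate block, limma on log2(FPKM + 1) or (FPKM + 0.1) for genes of at least 1 FPKM in 3 libraries, no FPKM filter, and leaving out each library.

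The genes and lists were chosen with earlier results of these data known. Named were all 10 genes, in each list the 3 smallest p and every member of a count of 5 or fewer, and the 2 most abundant of the markers given. Some markers beyond these were also named, among them Adgre1. Lists use current symbols from RefSeq synonyms, exon overlap is from GENCODE M21 (55141 of 55487 identifiers matched), and limits from counts cover counting error only. Exon overlap is stated for some of the named genes and not for all that have it. Figures used Matplotlib 3.10.9.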

Additional observations from a re-analysis of the deposited data

How the results depend on the processing

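The count of the 10 genes called higher was 4, and it was 3 to 5 with each library left out (3 without Mmrn1-low replicate 3, 5 without Mmrn1-low replicate 2) and 0 with filtered log2(FPKM + 1) or log2(FPKM + 0.1), where only Tlr2, Tlr4, Tlr6 and Myd88 passed the filter of 1 FPKM. The count called lower was 3, and it was 1 to 4 with each library left out (1 without Mmrn1-low replicate 3, 4 without Mmrn1-low replicate 1) and 1 with library size alone, DESeq2 and all 3 FPKM settings, with Myd88 the gene called in each of these. Over all genes, 3030 of 13146 tested were called lower with log2(FPKM + 1) and 3025 of 13146 with log2(FPKM + 0.1). With unfiltered log2(FPKM + 1) it was 3055 of 27171, against 4701 of 15419 in the main fit. With each library left out, 4399 to 4576 genes were called higher and 4185 to 4415 lower. Counts called in the 9 lists, both directions together, stayed within 1.5 times under the alternatives run. The split by direction was less stable. Among adaptors and kinases, library size alone lost the lower calls of Irak4 (edgeR adjusted p = 0.104), Ube2n (0.715) and Ripk1 (0.384). It also called Traf6 (edgeR adjusted p = 0.0179), Ikbkb (0.00101) and Btk (0.0297) higher. The labels do not say whether the replicate numbers pair the samples. Deviations of same-numbered libraries from their group means correlated at 0.0426, −0.0785 and 0.0286 across genes, and not every library correlated best with its own number. With means of 3 libraries, these correlations cannot decide whether same-numbered libraries share an origin. With the replicate number as a block, 8923 genes were called, against 9438, and 4 of the 10 genes were higher and 3 lower. Depth limits Tlr5 and Tlr3 most, with as few as 4 counts in a library.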
